A study of Rattus norvegicus with 6 samples.

Results

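Ehhadh, Pex11a, Hsd17b4 and Abcd3, 4 genes of peroxisomal fatty acid oxidation and peroxisome growth, were followed in liver RNA of male Sprague Dawley rats on Affymetrix rat expression arrays, which hold probe sets for 4736 genes by single symbol. They were taken by gene symbol: every probe set that the platform annotation assigns to 1 of these symbols alone was used, 9 of 8740 probe sets, with 1 for Ehhadh, 2 for Pex11a, 4 for Hsd17b4 and 2 for Abcd3. The Control group (3 arrays) received a liquid diet with 5% corn oil, and the NASH group (3 arrays), named for nonalcoholic steatohepatitis, one with 70% corn oil. Daily energy, set by metabolic body mass in kg, was 187 kcal in Control and 220 kcal in NASH. Both were delivered by total enteral nutrition for 3 weeks, and no allele or further agent is named for either group. Fat share and energy supply differed together, and the sources used here do not say whether the arrays came from separate animals, so each p-value refers to the scatter among these 6 arrays, part or all of which may be technical.

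Peroxisomes shorten very long, branched and dicarboxylic fatty acids by beta-oxidation and pass the products to mitochondria. Ehhadh, the L-bifunctional enzyme, and Hsd17b4, the D-bifunctional enzyme, each carry out the hydration and dehydrogenation steps, Hsd17b4 serving also branched fatty acids and bile acid intermediates. Abcd3 is an ATP-driven transporter that brings acyl-CoA esters across the peroxisomal membrane, and Pex11a is a peroxin that promotes elongation and division of the organelle. In rodent liver, peroxisome number and these enzymes are known to respond to fatty acids and fibrates through the nuclear receptor Ppara.

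The stretches of 250 bases upstream of the annotated starts of Ehhadh and Pex11a are shown because these genes had the member probe sets that passed the test without NASH 2. The sequences are from RefSeq on the GRCr8 build, Ehhadh at chr11:92746159-92746408 on the plus strand and Pex11a at chr1:143096492-143096741 on the minus strand, written 5′ to 3′, with GC boxes (GGGCGG, either strand) in capitals.

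Ehhadh: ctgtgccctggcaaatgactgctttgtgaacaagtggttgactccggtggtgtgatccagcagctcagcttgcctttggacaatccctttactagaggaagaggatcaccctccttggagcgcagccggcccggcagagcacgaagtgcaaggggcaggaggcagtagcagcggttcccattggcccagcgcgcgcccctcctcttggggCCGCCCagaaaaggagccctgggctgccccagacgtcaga

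Pex11a: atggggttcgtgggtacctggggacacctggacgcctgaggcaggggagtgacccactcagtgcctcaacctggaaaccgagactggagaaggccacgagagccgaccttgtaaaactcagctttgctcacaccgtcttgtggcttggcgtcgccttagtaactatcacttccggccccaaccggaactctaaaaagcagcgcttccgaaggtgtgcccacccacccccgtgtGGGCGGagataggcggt

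All 4 genes matched an upstream sequence, and each held at least 1 GC box, as did 30.5% of 33465 rat promoters of the same length. The hexamer AGGTCA, the half-site of nuclear receptor response elements, was searched on both strands and was found upstream of Hsd17b4 but not of Ehhadh, Pex11a or Abcd3, against 14.1% of all promoters. The receptor element of Ppara is a pair of such half-sites 1 base apart (AGGTCANAGGTCA, which overlaps the half-site search). The best window matched it at 8 of 12 positions for Ehhadh, Hsd17b4 and Abcd3 and at 7 for Pex11a. At least 8 matching positions were found in 74.5% of all promoters and at least 7 in 99.6%. An absent match says only that these letters are not in this window. TATAAA was in none of the 4 stretches, against 12.9% of all promoters. GC content was 62.0% for Ehhadh, 60.0% for Pex11a, 52.4% for Hsd17b4 and 75.6% for Abcd3, with a median of 51.2% over all promoters.

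Arrays were not on a common scale as deposited, with 2% trimmed mean signals from 73.6 to 117, lowest in NASH 3, so signals below are first given as deposited and then on a log2 scale after quantile normalization and an added offset of 2.28. The liver label was borne out: 11 hepatocyte markers were measured and summed to 30509 to 32560 normalized signal units in NASH and 32611 to 35439 in Control. Of these markers 8 were lower and 3 higher in NASH (10 and 1 with no scaling), with a median of −0.26. At an unadjusted p under 0.05, 5 of them were lower, and 0 passed the threshold by limma. Of all 5244 tested probe sets, 413 had an unadjusted p under 0.05 in either direction. Relative to the Control mean, these markers had a median of −0.32 in NASH 2, from −1.44 for F10 to 0.59 for Tat. For the mean of NASH 1 and NASH 3 the median was −0.21. The part of these markers in the differences below was not tested. NASH 2 also held transcripts of brown fat and skeletal muscle. The 9 fat markers summed to 4327 there, against 503 to 516 in Control and 579 and 669 in the other NASH arrays, with Ucp1 at 1100 deposited units against at most 15.97 and Fabp4 at 1044 against at most 4.47. The 9 muscle markers summed to 2573 in NASH 2, against 138 to 235 elsewhere. No marker was listed at 0, and NASH 2 was highest for stellate cell and lymphocyte markers as well, 890 against 339 to 651 and 273 against 110 to 178. Macrophage markers ran from 268 to 382 and kidney markers from 58.5 to 80.5 over the 6 arrays. Control 3 had the highest 3′ to 5′ signal ratio of the actin control, 5.07 against 2.15 to 2.93. Results that rest on NASH 2 or Control 3 are given with and without them, and their part in the differences was not tested beyond that. In bulk tissue, fewer cells of a type and less RNA per cell cannot be told apart.

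Ehhadh was the member with the widest split within the NASH group. Its deposited signal was 545, 294 and 315 in Control 1, 2 and 3, and 1532, 332 and 1341 in NASH 1, 2 and 3. NASH 1 and NASH 3 therefore lay well above every Control array, while NASH 2 lay inside the Control range, so the groups overlapped. On the log2 scale the Control mean was 8.49 ± 0.26 (SD, n = 3) and the NASH mean 9.87 ± 1.21 (SD, n = 3). The difference was 1.38 ± 0.53 (standard error) or 2.60-fold, with a limma adjusted p of 0.581. The 95% interval ran from 0.15 to 2.60. Relative to the Control mean, NASH 1 stood at 1.92, NASH 3 at 2.22 and NASH 2 at −0.01. Without NASH 2 the difference was 2.07 ± 0.23, or 4.20-fold, and passed the threshold (limma adjusted p = 0.0236). That fit leaves out the NASH array inside the Control range, so its smaller standard error is not independent support. Without Control 3 the difference was 1.27 (interval −0.24 to 2.78, limma adjusted p = 0.646). It was 1.10 without NASH 1 (adjusted p = 0.722) and 0.95 without NASH 3 (adjusted p = 0.907). By signal rank within an array, Ehhadh lay at the 97.5th and 98.0th percentile of all probe sets in NASH 1 and NASH 3 and at the 91.3rd in NASH 2, next to the 90.4th to 92.5th in Control, a reading that does not depend on scaling.

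Pex11a was measured by 2 probe sets, and NASH 2 was the lowest NASH array for both, as for Ehhadh. With AJ224120_at the deposited signals were 50.3, 36.3 and 32.3 in Control 1, 2 and 3, against 142, 62.3 and 159 in NASH 1, 2 and 3. Every NASH array lay above every Control array, NASH 2 by the least. The log2 means were 5.30 ± 0.19 in Control and 6.90 ± 0.86 in NASH (SD, n = 3 each). The difference was 1.60 ± 0.40 (standard error) or 3.04-fold, with a 95% interval from 0.68 to 2.53 and a limma adjusted p of 0.389, rank 55 of 5244 tested probe sets. Without NASH 2 it was 2.07 ± 0.28, or 4.19-fold, past the threshold (limma adjusted p = 0.0438). It was 1.56 without Control 3 (adjusted p = 0.579), 1.53 without NASH 1 (adjusted p = 0.576) and 1.21 without NASH 3 (adjusted p = 0.907). The slightly brighter probe set, rc_AA892128_at, read 66.8, 22.0 and 72.8 in Control and 163, 49.6 and 147 in NASH. Here NASH 2 lay below Control 1 and Control 3, and Control 2 was the lowest array. The difference was 1.28 ± 0.60 (limma adjusted p = 0.618), 1.87 without NASH 2 (adjusted p = 0.497) and 0.76 without Control 2 (adjusted p = 0.674). Both Pex11a probe sets had a positive difference, and both gave their highest value without NASH 2.

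**Figure D1:**
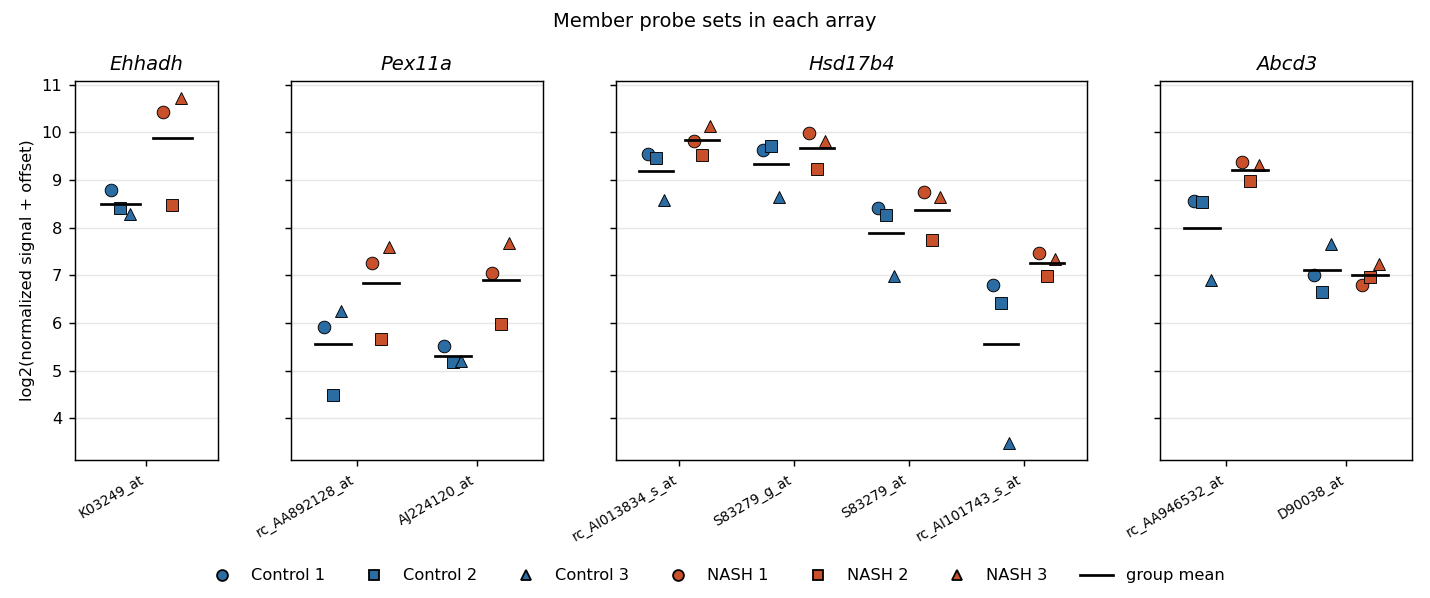
Log2 signal (quantile normalized, plus offset) of the 9 member probe sets in each array, with Control in blue, NASH in orange, marker shape for the replicate and a bar at each group mean (n = 3). For Ehhadh, NASH 1 (10.42) and NASH 3 (10.71) stand above all Control arrays while NASH 2 (8.48) lies among them, and Control 3 is the lowest array for all 4 Hsd17b4 probe sets and for the Abcd3 probe set rc_AA946532_at.

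Hsd17b4 had 4 probe sets, all with a positive difference and none past the threshold. The brightest, rc_AI013834_s_at, had deposited signals of 939, 631 and 391 in Control 1, 2 and 3, and 1020, 660 and 861 in NASH 1, 2 and 3. After scaling the log2 means were 9.19 ± 0.53 in Control and 9.83 ± 0.31 in NASH (SD, n = 3 each), and the groups touched, with Control 1 at 9.534 and NASH 2 at 9.527. The difference of 0.64 ± 0.29 (standard error, 1.56-fold) had a 95% interval from −0.03 to 1.31 and a limma adjusted p of 0.618. Control 3 was the lowest array for all 4 probe sets. Without it the difference was 0.34 (interval −0.16 to 0.83, limma adjusted p = 0.685).

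S83279_g_at and S83279_at, which were designed on the same sequence record and are not independent (Pearson r = 0.991 over the 6 arrays), differed by 0.34 ± 0.33 and 0.49 ± 0.43 (limma adjusted p = 0.809 and 0.786). Deposited signals of S83279_g_at were 1006, 742 and 410 in Control and 1126, 538 and 694 in NASH, so that NASH 2 lay below Control 1 and Control 2. Without Control 3 these differences were 0.00022 and 0.037, with intervals from −0.58 to 0.58 and from −0.74 to 0.81. The dimmest Hsd17b4 probe set, rc_AI101743_s_at, gave the largest difference of the gene, 1.69 ± 0.77 (limma adjusted p = 0.618). Its signal was 7.61 in Control 3 against 131 and 81.4 in the other Control arrays and 191, 123 and 123 in NASH. The groups did not overlap after scaling (at most 6.80 in Control, at least 6.98 in NASH), though they did as deposited, and without Control 3 the difference was 0.65 (adjusted p = 0.606). The size of the Hsd17b4 difference therefore ran from 0.34 to 1.69 by probe set. The manufacturer's ending _s_at marks probes that may match more than 1 transcript, which applies to 2 of the 4.

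Abcd3 was measured by 2 probe sets that disagreed. With rc_AA946532_at, deposited signals were 463, 316 and 118 in Control 1, 2 and 3, and 765, 454 and 484 in NASH 1, 2 and 3. After scaling every NASH array lay above every Control array, from 8.98 to 9.37 against 6.91 to 8.56, though NASH 2 lay below Control 1 as deposited, and NASH 2 stood close to the other NASH arrays. The SD of the log2 values was 0.95 in Control and 0.21 in NASH (n = 3 each). The difference was 1.22 ± 0.43 (standard error) or 2.32-fold, with a 95% interval from 0.23 to 2.21 and a limma adjusted p of 0.553. It was 0.67 ± 0.18 without Control 3 (limma adjusted p = 0.504) and 1.34 without NASH 2 (adjusted p = 0.836). With D90038_at, signals were 153, 94.8 and 205 in Control and 118, 122 and 112 in NASH, and the groups overlapped. That difference was −0.11 ± 0.29 (interval −0.77 to 0.56, limma adjusted p = 0.935), and 0.17 without Control 3, which was the highest array here and the lowest for the other probe set. Across the 6 arrays the 2 Abcd3 probe sets had a Pearson r of −0.68, and D90038_at had a negative r with all 4 Hsd17b4 probe sets (−0.75 to −0.55). Where the probes of each set lie in the transcript was not used here, and a statement about Abcd3 depends on which probe set is read.

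With p-values adjusted over the whole table (limma, Benjamini-Hochberg), 0 of 9 member probe sets passed 0.05, where 7 of 5244 tested probe sets, 0.133%, did. All 9 passed the filter on dim signals, which takes the mean over all 6 arrays. At an unadjusted p under 0.05, 3 of 9 were higher in NASH (Ehhadh, AJ224120_at of Pex11a and rc_AA946532_at of Abcd3), against 3.83% of all tested probe sets. After scaling, all NASH values lay above all Control values for 3 of 9 (AJ224120_at, rc_AI101743_s_at and rc_AA946532_at), against 6.56%. As deposited, the groups overlapped for rc_AI101743_s_at and rc_AA946532_at. The difference was positive for 8 of 9, against 47.1%, with a median of 1.22 over the members and −0.02 over all tested probe sets. Probe sets of 1 gene share their target, so these counts stand for 4 genes. Those genes were chosen with earlier results of these data known, so the counts are a description and not independent support. Without NASH 2, 2 of 9 were called higher (Ehhadh and AJ224120_at), against 0.305%. With no scaling between arrays the median over all tested probe sets shifted to −0.17 and that over the members to 1.09, and each member kept its direction.

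**Figure D2:**
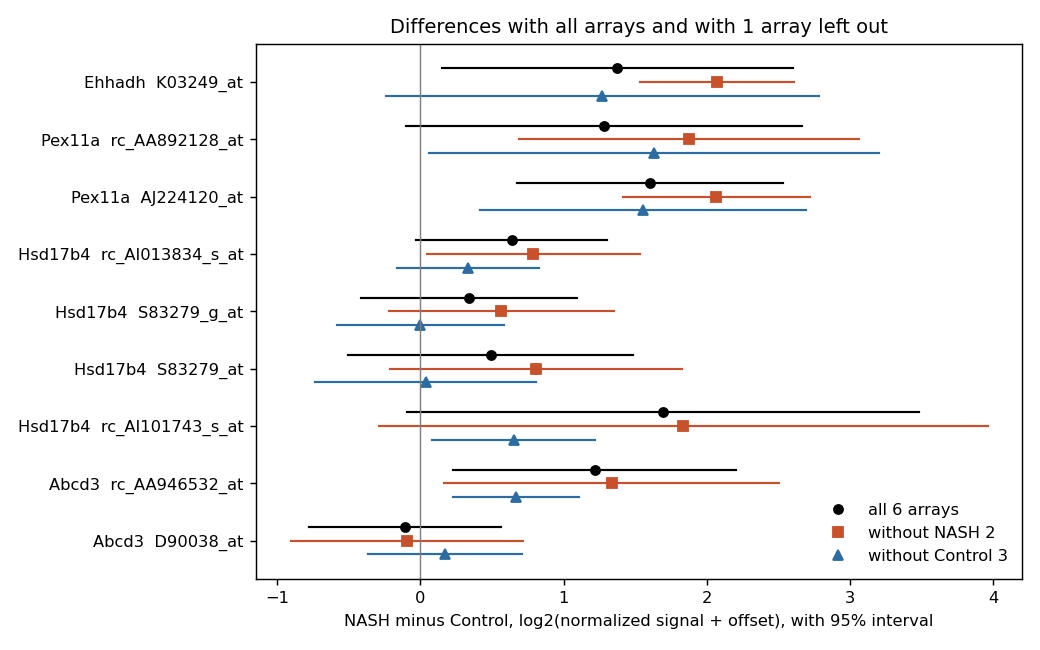
NASH minus Control on the log2 scale for each member probe set, with 95% intervals from limma, for all 6 arrays (black), without NASH 2 (orange) and without Control 3 (blue). Leaving out NASH 2 moves Ehhadh from 1.38 to 2.07 and narrows its interval, while leaving out Control 3 moves all 4 Hsd17b4 probe sets and rc_AA946532_at of Abcd3 toward 0.

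NASH 2 was the lowest NASH array for 8 of the 9 probe sets, and Control 3 the lowest of all 6 arrays for 6 of them, Ehhadh included. Over the 6 arrays Ehhadh had a Pearson r of 0.96 with AJ224120_at of Pex11a and 0.78 with rc_AI013834_s_at of Hsd17b4, and rc_AA946532_at of Abcd3 one of 0.98 with rc_AI101743_s_at of Hsd17b4. These values describe 6 arrays that share the diet contrast and any quality differences. To compare both bifunctional enzymes, the log2 ratio of Ehhadh to the brightest Hsd17b4 probe set was taken within each array, a comparison chosen after their values were seen. Relative to its Control mean it was −0.05, −0.34 and 0.40 in Control 1, 2 and 3, and 1.29, −0.35 and 1.27 in NASH 1, 2 and 3. The ratio was thus higher in NASH 1 and NASH 3 than in any Control array, and NASH 2 was level with Control 2, the lowest of them. The mean difference between the diets was 0.74 (exact permutation test over arrays, two-sided, p = 0.4). With S83279_g_at, a nearly equally bright Hsd17b4 probe set, NASH 2 stood at 0.10, inside the Control range, and the mean difference was 1.04 (exact permutation p = 0.2). The smallest p that 3 against 3 arrays allow is 0.1, so this test could not pass 0.05.

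The instrument's wash record was blank for Control 2 and NASH 3 and filled for the other 4 arrays. Among the arrays with a filled record the differences were 0.91 for Ehhadh, 0.37 and 1.15 for rc_AA892128_at and AJ224120_at of Pex11a, 0.61 for the brightest Hsd17b4 probe set, and 1.44 and −0.45 for rc_AA946532_at and D90038_at of Abcd3. Between NASH 3 and Control 2 they were 2.30, 3.11 and 2.50, 0.69, and 0.77 and 0.58 in the same order. By these differences Ehhadh and Pex11a were higher in NASH in both classes, and D90038_at turned sign between them. The blank class is NASH 3 and Control 2 alone, with no replicate. Among the filled arrays NASH 2 was below Control 1 for Ehhadh (8.48 against 8.79). For rc_AA892128_at it was below both Control arrays (5.66 against 5.91 and 6.25). The limma adjusted p among filled arrays was 0.796 for Ehhadh, 0.888 for rc_AA892128_at and 0.772 for AJ224120_at. For Ehhadh and Pex11a the difference was smaller among the filled arrays, which include NASH 2. The blank pair includes Control 2, the lowest array for rc_AA892128_at. The part of either array in this gap was not tested.

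Other peroxisomal oxidation genes divided into some with an array order like that of Ehhadh and some with differences near 0. Of 21 other listed genes, 9 were on the array and 8 were tested, with 7 higher and 1 lower in NASH, or 5 and 3 with no scaling, where Hacl1 and Scp2 turned sign. By limma 0 of the 8 passed the threshold. At an unadjusted p under 0.05, 2 were higher (Crot and Ech1), against 3.83% of all tested probe sets. The median difference was 0.44 (0.72 without NASH 2), against −0.02 over all tested probe sets. This list, like the members, was chosen with earlier results of these data known. Acaa1b, a peroxisomal thiolase that completes the cycle after Ehhadh, stood at 9.91 and 10.59 in NASH 1 and NASH 3, and at 7.66 in NASH 2 against 7.44 to 8.85 in Control. Its difference was 1.36 (limma adjusted p = 0.636), and 2.22 without NASH 2 (adjusted p = 0.189). Crot, which makes carnitine esters for export from peroxisomes, differed by 1.41 (limma adjusted p = 0.452) and Ech1, a dienoyl-CoA isomerase, by 1.66 (adjusted p = 0.197), and for both NASH 2 lay above all Control arrays but below the other NASH arrays. A second Crot probe set gave 2.29 (adjusted p = 0.387). Decr2, a dienoyl-CoA reductase, had a difference of 0.70 (adjusted p = 0.618), and 0.76 with its second probe set. Acox2 (0.18), Scp2 (0.15), Hacl1 (0.09) and Amacr (−0.25), which serve branched-chain and bile acid substrates or carry lipids, differed by less than 0.3 with their brightest probe set (limma adjusted p from 0.737 to 0.961), and a second Scp2 probe set gave 0.38. Without NASH 2, Ech1 was called (2.03, limma adjusted p = 0.0278).

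Among other peroxisomal membrane proteins, 1 of 4 tested was higher and 3 lower, with a median of −0.53 (−0.22 without NASH 2). By limma 0 passed the threshold. At an unadjusted p under 0.05, 1 was higher (Slc27a2), against 3.83% of all tested probe sets. The acyl-CoA synthetase Slc27a2 differed by 0.55, Acsl1 by −0.49, the carrier Slc25a17 by −0.58 and the channel protein Pxmp2 by −0.75 (limma adjusted p from 0.558 to 0.663). The Pxmp2 value rested on NASH 2, which stood at 8.02 against 9.42 to 10.02 elsewhere, and was −0.22 without it, and Acsl1 was also −0.22 without NASH 2. Acsl1 has 4 probe sets, and the other 3 gave 0.02, 0.13 and 0.71.

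Genes of peroxisome assembly and fission other than Pex11a had smaller differences with their brightest probe set, apart from the dim Dnm1l. Of 7 tested, 5 were higher and 2 lower (4 and 3 with no scaling, where Pex6 turned sign), with a median of 0.25 and by limma 0 past the threshold (0 at an unadjusted p under 0.05). The import receptor Pex5 differed by −0.12, its docking partner Pex14 by 0.25, the membrane assembly factor Pex19 by 0.54, Pex2 by 0.43 and Pex6 by 0.10, and the fission proteins Dnm1l and Fis1 by 1.14 and −0.35 (limma adjusted p from 0.618 to 0.944). Second probe sets gave −1.04 for Pex14, −0.23 for Pex2, 0.19 for Pex6 and −0.35 for Fis1. The other Dnm1l probe sets did not pass the filter on dim signals. In 0 of the 7 did NASH 1 and NASH 3 both lie above all Control arrays, as they did for Pex11a. The share of all tested probe sets with that order was not counted.

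**Figure D3:**
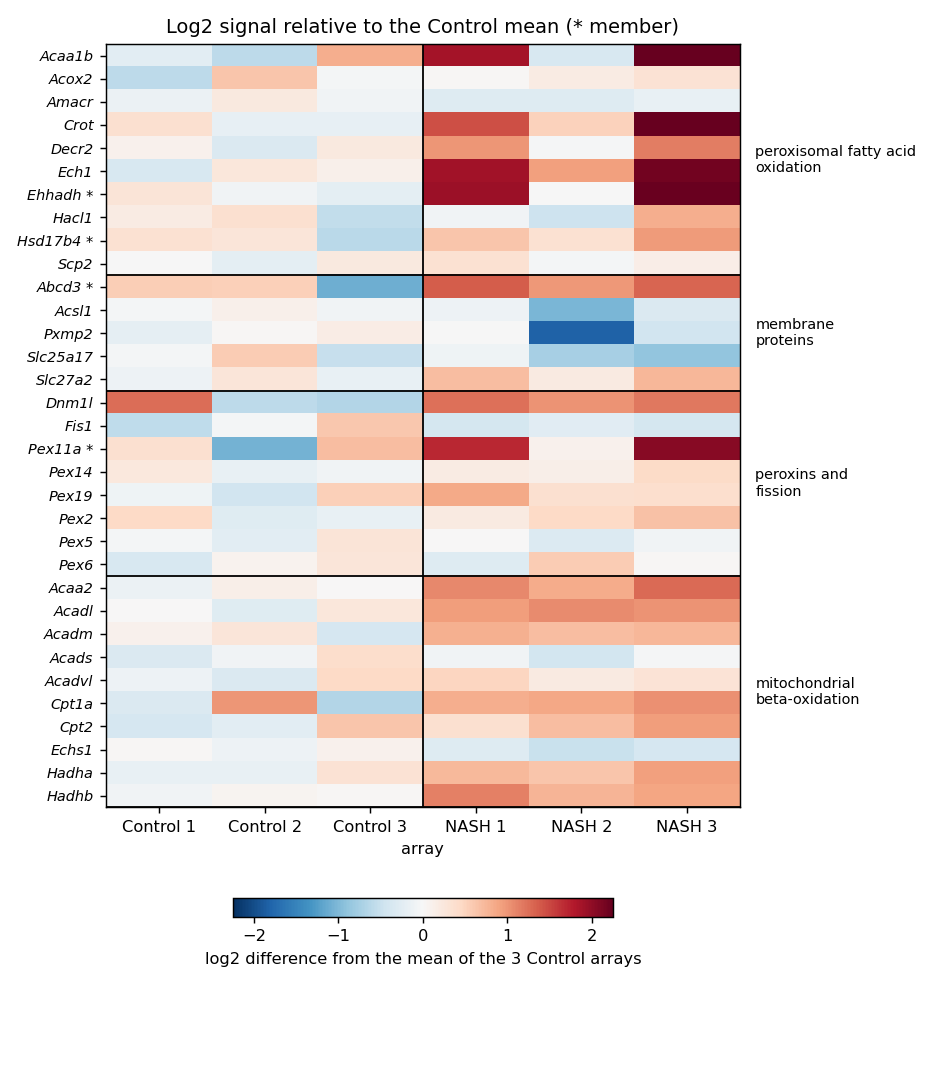
Log2 signal of each tested gene minus its mean over the 3 Control arrays, with 1 row a gene, 1 column an array and members starred. Red is above and blue below the Control mean. NASH 2 is pale for Ehhadh, Pex11a, Acaa1b and Decr2, where NASH 1 and NASH 3 are deep red or orange, and all 3 NASH arrays are red for Acaa2, Acadl, Hadha and Hadhb.

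Enzymes listed for the peroxisomal matrix outside fatty acid oxidation, not all of them confined to peroxisomes, had no common direction. Of 14 tested, 7 were higher and 7 lower (4 and 10 with no scaling), with a median of 0.0021 and by limma 0 past the threshold. At an unadjusted p under 0.05 there was 1, Dao, an amino acid oxidase (−0.91), named after its value was seen. Catalase (Cat), which removes the hydrogen peroxide that peroxisomal oxidation forms, differed by −0.02 and urate oxidase (Uox) by −0.20 (limma adjusted p = 0.979 and 0.794), while a second Cat probe set gave 0.32 and the other Uox probe sets −0.05 and 0.03. Ppara itself differed by −0.61 (limma adjusted p = 0.691). Its probe set was dim, at 3.99 to 5.12 in Control and 3.62 to 4.35 in NASH, near the filter cut of 3.95. Of 9 tested genes of this receptor and its partners, 3 were higher and 6 lower (1 and 8 with no scaling). By limma 0 passed the threshold, and 1, the partner receptor Rxra (0.54), had an unadjusted p under 0.05. Of all 5244 tested probe sets, 413 had such an unadjusted p in either direction.

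Genes of mitochondrial beta-oxidation were less split within NASH than Ehhadh. Some peroxisomal genes were close within NASH as well, as Amacr (8.32 to 8.45) and Acox2 (9.08 to 9.39). Hadha and Hadhb, subunits of the trifunctional protein, differed by 0.75 (1.03 and 0.69 with the other Hadha probe sets) and 0.93, and the long-chain dehydrogenase Acadl by 1.00 (limma adjusted p = 0.402, 0.186 and 0.112). Of 10 tested genes of mitochondrial beta-oxidation 8 were higher and 2 lower, and 0 passed the threshold by limma. They include Cpt1a and Cpt2, carnitine transferases of fatty acid entry rather than of the oxidation steps. At an unadjusted p under 0.05 there were 6, 1 of them lower, against 413 of all 5244 tested probe sets in either direction. Without NASH 2, the thiolase Acaa2 was called (1.18, limma adjusted p = 0.0476). Hadhb stood at 9.27, 8.91 and 9.03 in NASH 1, 2 and 3, against 8.05 to 8.19 in Control, and did not overlap. Among these 10 genes, NASH 2 lay above every Control array in 6, and of the 10 peroxisomal oxidation genes, members included, in 2. The share of all tested probe sets with NASH 2 above every Control array was not counted, so neither number is read against a background. Relative to the Control mean, NASH 2 had a median of 0.69 over the mitochondrial and −0.02 over the peroxisomal genes, and the mean of NASH 1 and NASH 3 had medians of 0.80 and 0.93. This contrast within 1 array has no replicate and was not tested. NASH 2 is also the array that held transcripts of brown fat and skeletal muscle, so its values may not be those of liver alone. The part of those transcripts in the contrast was not tested.

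**Figure D4:**
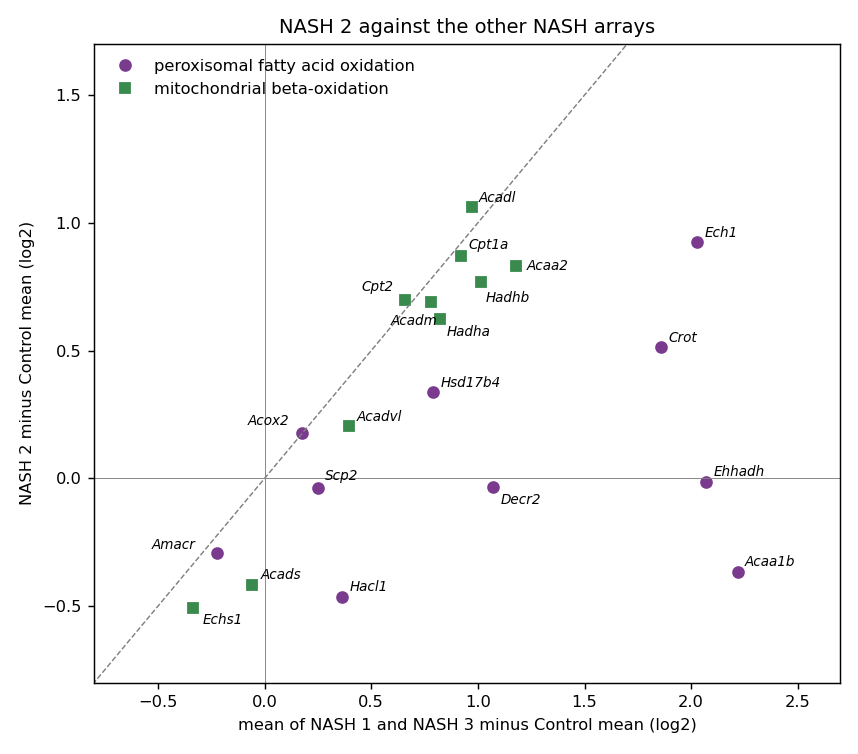
Log2 signal of NASH 2 minus the Control mean (vertical) against the mean of NASH 1 and NASH 3 minus the Control mean (horizontal), with 1 point a gene and the dashed line marking equal values. Mitochondrial genes (green squares) lie nearer the line than Ehhadh (2.07, −0.01) and Acaa1b (2.22, −0.37), which lie far below it. The other peroxisomal genes range from near the line, as Acox2 (0.18, 0.18) and Amacr (−0.22, −0.29), to well below it, as Crot (1.86, 0.51). NASH 2 also held transcripts of brown fat and skeletal muscle.

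The genes whose log2 pattern over the 6 arrays was most like each member, by Pearson r among tested probe sets of genes other than the 4 members, were taken as a description with no test. For Ehhadh these were Cyp4a1, a fatty acid omega-hydroxylase (r = 0.976), Vwa8 (0.976) and Cyp2b2, a cytochrome P450 (0.971). Cyp4a1 stood at 8.74 and 8.80 in NASH 1 and NASH 3 and at 6.31 in NASH 2, against 6.07 to 6.32 in Control, the same order of NASH arrays as for Ehhadh. Pex11a (rc_AA892128_at) was most like Kif12 (0.996), AKR1C3l1 (0.994) and the sterol enzyme Lss (0.990). In each of these Control 2 was the lowest array (3.17, 6.28 and 5.15), as it was for rc_AA892128_at (4.49). Kif12 was dim, at 3.17 to 4.73 over the arrays. For Hsd17b4 they were C5ar1 (0.993), St8sia2 (0.987) and Cyp3a23-3a1 (0.983), and for Abcd3 (rc_AA946532_at) Cyp3a23-3a1 (0.991), Slc8a1 (0.988) and St13 (0.979), where rc_AI101743_s_at of Hsd17b4, itself a member, had 0.985. Cyp3a23-3a1, shared by both lists, was lowest in Control 3 (8.45 against 10.27 to 11.15 in the other arrays).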

How the data were processed

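The values are intensities, 1 linear signal per probe set and array, which the authors deposited after MAS5 per the submitters' processing notes. The MAS5 version and its scaling target are not stated. Instrument records, other information deposited by the authors per the file headers, served only for the wash record. Of 8799 probe sets, 59 controls were left out after normalization. Of the other 8740, 7006 had 1 gene symbol, 308 several and 1426 none in the platform annotation.

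Signals were quantile normalized and log2(signal + 2.28) was taken. The offset is the 10th percentile over the table and makes fold changes of dim probe sets too small. The 5244 probe sets whose mean log2 exceeded 3.95, the 40th percentile, were tested with limma 3.58.1 in R 4.3.3 (lmFit, eBayes with an intensity trend, no covariates) and Benjamini-Hochberg adjustment. This step was tested on simulated data. A listed gene with several probe sets is given by the brightest. The number of arrays limits the precision.

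Groups came from the sample titles, since each sample description repeats that of Control 1. Genes named were the member probe sets, the listed genes of peroxisomal oxidation, membrane and assembly, Cat, Uox, Ppara, Hadha, Hadhb, Acadl and the 3 genes most like each member, and others are named as examples chosen after their values were seen. Members and lists were chosen with earlier results of these data known. Alternatives were another scaling, offset, filter, variance prior or threshold, array weights, the replicate number or wash record as a block, and arrays left out.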

Additional observations from a re-analysis of the deposited data

How the results depend on the processing

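Over 19 alternative fits, 8 of the 9 member probe sets kept a positive difference, while D90038_at of Abcd3 ranged from −0.33 (without Control 2) to 0.17 (without Control 3) with 1 array left out and was negative in 18. Ehhadh ranged from 0.95 to 2.07 with 1 array left out and was 2.03 (limma adjusted p = 0.0428) with Control 2 and NASH 2 both left out. Its adjusted p over all alternatives ran from 0.0236 to 0.907. Member probe sets called by limma numbered 0 to 2 with 1 array left out, 1 with Control 2 and NASH 2 both left out and 0 in the other settings (3 of 9 at an unadjusted p under 0.05 in the reported fit, 1 to 5 in the alternatives). Of all probe sets, 7 were called. With 1 array left out the count ran from 0 to 17, 17 without NASH 2, 1 without Control 2 or NASH 1, and 0 without Control 1, Control 3 or NASH 3 (510, 414 and 261 at an unadjusted p under 0.05). It was 14 with no scaling, 0 with no filter (635 unadjusted), 3 with no intensity trend, 18 with array weights, 3 with the wash record as block, 16 with Control 2 and NASH 2 both left out, 1 on arrays with a filled wash record and 14 at an adjusted p under 0.10. With the replicate number as a block (replicate block) 1 probe set was called, 0 of them among the 7 and 0 members (5 unadjusted). Deviations of same-numbered arrays had r of 0.05, −0.02 and 0.07, so the numbers were not taken to pair samples. The causes of these changes were not tested.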
